A study of Drosophila melanogaster with 2 samples.

Results

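Small nucleolar RNAs (snoRNAs) guide the chemical modification of ribosomal RNA: box C/D snoRNAs direct methylation of the ribose and box H/ACA snoRNAs direct the conversion of uridine to pseudouridine. In Drosophila most of them lie in introns of other genes, their hosts, and are released from the spliced intron, so a snoRNA is usually made from the promoter of its host. Hosts include genes for ribosomal proteins and Uhg genes, noncoding genes whose spliced exons encode no protein.

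The 269 genes of biotype snoRNA on the chromosome arms of the Ensembl annotation were taken, out of 18277 annotated genes without transposable elements. The host of each was the smallest gene on the same strand that contains it. Of the 269, 71 lay in 28 ribosomal protein genes, 176 lay in 64 other genes and 22 had no host. The 64 other hosts were 54 protein-coding genes with 121 snoRNAs and 10 noncoding genes with 55. The rule used only the annotation.

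Binding of the protein CG3032 at these genes was read from ChIP-seq of whole Drosophila melanogaster prepupae aged 24 hours, males and females pooled. The animals came from a transgenic line that expresses CG3032 with eGFP at its C-terminus, and an antibody against GFP was used for the precipitation. There were 2 biological replicates, numbered 2 and 3, of this single line and 1 group, with no condition to compare. A peak in whole animals does not tell which cells carried it. The promoter that drives the fusion protein is not given in the sources used here. The deposited IDR list (peaks kept by the irreproducible discovery rate, which asks whether the replicates rank a peak alike) held 8170 peaks. The whole-series list and the list of each replicate held 30000 each. A summit is the highest point of a peak, and its signal is the value the authors deposited, in units that are not defined here. Read depth is unknown. A summit within 500 bp of a transcription start site (TSS) of a gene was called its promoter summit, and negative positions are upstream.

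The snoRNAs below are shown because a summit lay within 500 bp of their start and because they show both box classes. U49:66Da lies in RpL14, Psi18S-1275 in RpS29 and Me18S-A1576 in the noncoding host Uhg2, while Me18S-A1806 has no host. In that order the summits lay at −495, −308, −244 and −4 bp from the snoRNA start. The summit at Me18S-A1806 was in the whole-series list only. Capitals mark the ACA near the end of Psi18S-1275, which is of the H/ACA kind. In the others, of the C/D kind, they mark the C box near the start and the D box near the end. Sequences are 5′ to 3′ from the RefSeq copy of the dm6 assembly.
snoRNA:U49:66Da (chr3L:8601473-8601552, plus strand): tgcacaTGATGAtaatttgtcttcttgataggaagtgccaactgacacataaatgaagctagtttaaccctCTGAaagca
snoRNA:Psi18S-1275 (chr3R:9778398-9778537, plus strand): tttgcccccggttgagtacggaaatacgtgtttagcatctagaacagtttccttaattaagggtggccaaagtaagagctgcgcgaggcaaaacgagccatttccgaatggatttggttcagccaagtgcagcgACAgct
snoRNA:Me18S-A1576 (chr2L:9894795-9894907, minus strand): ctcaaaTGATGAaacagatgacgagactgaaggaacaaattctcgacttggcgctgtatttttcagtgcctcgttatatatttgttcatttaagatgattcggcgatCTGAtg
snoRNA:Me18S-A1806 (chr3L:7639717-7639794, plus strand): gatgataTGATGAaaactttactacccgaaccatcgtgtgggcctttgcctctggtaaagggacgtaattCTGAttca

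Names and boxes matched for most snoRNAs. The name gave the class for 100 C/D and 120 H/ACA snoRNAs and left 49 unclassed. Of the C/D names, 68 of 100 held both the C box TGATGA and the D box CTGA in the last 20 bases, against 0 of 120 H/ACA names. An ACA in the last 8 bases was present in 114 of 120 H/ACA names and in 6 of 100 C/D names. H/ACA snoRNAs made up 43 of the 71 in ribosomal protein hosts (60.6%, exact 95% interval 48.3 to 72.0) and 68 of the 176 in other hosts (38.6%, 31.4 to 46.3). These intervals take each snoRNA as independent, though many share a host, so they are likely too narrow. Median lengths were 140 bases for H/ACA and 80 bases for C/D.

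Most hosted snoRNAs, 229 of 247, lay in an intron in every transcript that contains them. Box C/D snoRNAs sat at a nearly fixed distance before the next exon, with a median of 71 bases and quartiles of 68 and 78 (n = 79). H/ACA snoRNAs had a median of 275.5 bases and quartiles of 80.25 and 596.5 (n = 110). The TSS of the nearest host transcript was at a median of 874 bp from snoRNAs in ribosomal protein hosts and 1819 bp from those in other hosts. Ribosomal protein hosts were also shorter genes, with a median of 1765.5 bp against 4958 bp.

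CG3032-eGFP was found at the promoters of nearly all ribosomal protein hosts and at about as many of the other hosts as not, and seldom at the snoRNAs themselves. An IDR promoter summit was present at 26 of 28 ribosomal protein hosts (92.9%, exact 95% interval 76.5 to 99.1) and at 33 of 64 other hosts (51.6%, 38.7 to 64.2), beside 26.9% of all 13968 protein-coding genes. Among the other hosts, 29 of 54 protein-coding genes (53.7%, 39.6 to 67.4) and 4 of 10 noncoding genes (40.0%, 12.2 to 73.8) had one. Over all 3289 ncRNA genes the share was 10.4%. The share over all genes of the same kind lay below the interval of each of these host classes.

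In the whole-series list, which reaches down to weaker peaks, 28 of 28 ribosomal protein hosts, 42 of 54 other protein-coding hosts and 7 of 10 noncoding hosts had a promoter summit. This list marked 49.1% of all protein-coding genes and 29.1% of ncRNA genes. Each replicate alone gave the same order. Among the 8170 strongest peaks of replicate 2, 27 of 28 ribosomal protein hosts and 39 of 64 other hosts had a promoter summit, beside 27.7% of protein-coding genes. Among the 8170 strongest of replicate 3 the counts were 26 of 28 and 37 of 64, beside 26.6%. Intervals cover counting error over genes only, and no test was made, as the lists were described with earlier results of these data known.

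**Figure D1:**
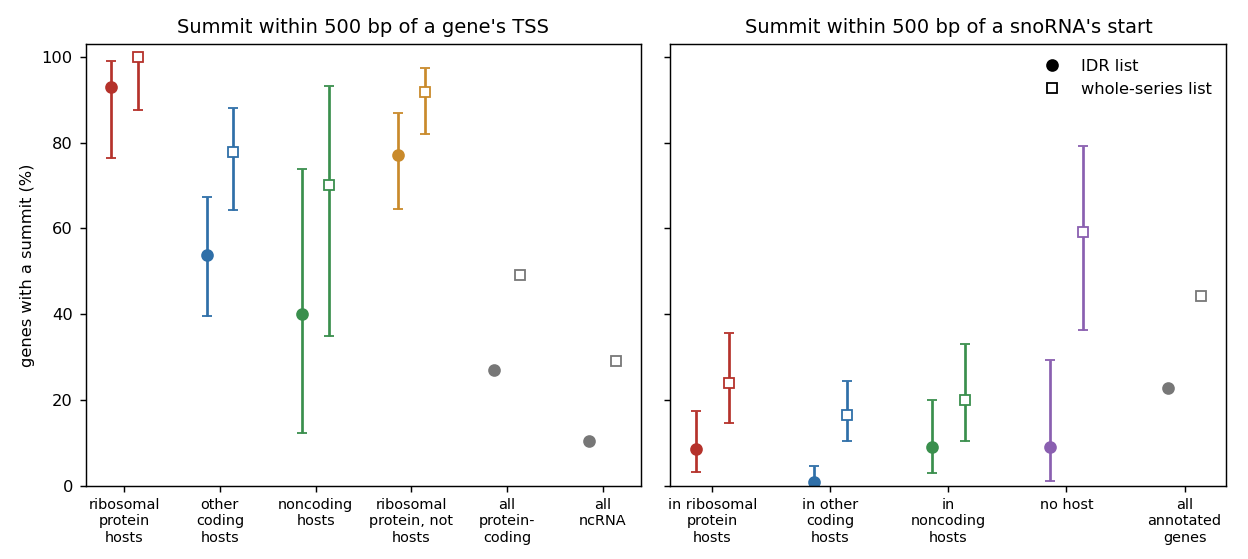
Share of genes with a CG3032-eGFP summit within 500 bp of a TSS (left, %) and of snoRNAs with one within 500 bp of their start (right, %), for the IDR list (filled) and the whole-series list (open). Bars are exact 95% intervals and grey points are all genes of a kind: 26 of 28 ribosomal protein hosts had an IDR promoter summit, while 6 of the 71 snoRNAs inside them had one at their start.

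Ribosomal protein genes that hold no snoRNA also carried promoter summits often, at 47 of 61 (77.0%, 64.5 to 86.8), and this interval overlaps that of the 28 hosts. The part that housing a snoRNA has in the host share, beside being a ribosomal protein gene, was not tested.

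Of the ribosomal protein hosts, RpL14 had the strongest promoter summit, with a signal of 748.6 at −28 bp. It had 248 in replicate 2 and 499 in replicate 3. This summit also lay within 500 bp of the TSS of Nelf-E, a subunit of the negative elongation factor. RpL28, which holds 5 snoRNAs, followed with 643.2 at −89 bp (284 in replicate 2 and 366 in replicate 3). RpS20 had 608.3 at −172 bp, RpL13A 556.7 at −71 bp, RpS4 474.1 at −13 bp, RpS5a 438.2 at −76 bp, RpL30 405.3 at −11 bp and RpS3A 358.0 at −78 bp. In replicate 2 these 6 ranged from 52.2 at RpS4 to 229 at RpS5a, and in replicate 3 from 205 at RpS5a to 384 at RpS20. The order of the hosts therefore differed between replicates: RpS5a was the highest of the 6 in one and the lowest in the other. Summits of RpL28, RpS20 and RpL13A also lay within 500 bp of another gene's TSS. At RpS20 the nearest TSS was that of CG17271.

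RpL36A had no IDR promoter summit and a weaker one in the whole-series list, with a signal of 98.9 at −9 bp. It was found in replicate 3 (107) and not within 100 bp in replicate 2. The 26 IDR signals ran from 151 to 749 with a median of 291, close to the median of 312 over the 33 other hosts and below the 336 over the 3763 protein-coding genes with an IDR promoter summit. Ribosomal protein hosts were thus marked often, at summits of ordinary height: with the stronger 4085 IDR peaks alone, 12 of 28 kept one (42.9%) and 17 of 64 other hosts did (26.6%), beside 14.8% of protein-coding genes.

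Summits at ribosomal protein hosts lay close to the TSS. Their median position was −38.5 bp, with quartiles of −87.25 and −11.00 (n = 26), against −154 bp at other hosts (quartiles −235.0 and −88.00, n = 33) and −138 bp over all protein-coding genes (n = 3763). Ribosomal protein genes without a snoRNA had a median of −40 bp (n = 47). Among the strongest peaks of replicate 2 the medians were −92 bp at ribosomal protein hosts and −149 bp at other hosts, and among those of replicate 3 they were −9.5 bp and −134 bp. The position at ribosomal protein hosts thus moved between replicates, while it lay nearer to the TSS than at other hosts in each.

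**Figure D2:**
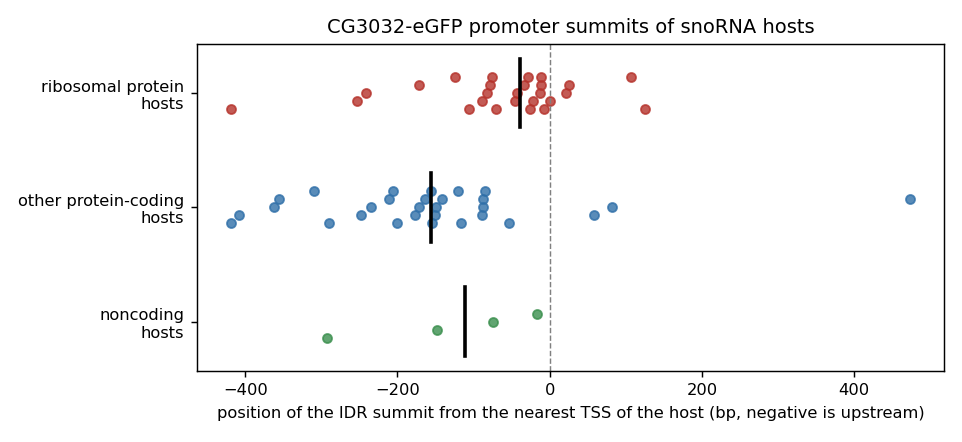
Position of the IDR promoter summit from the nearest TSS of each host with one (bp, negative is upstream), by host class, 1 point per host with black lines at the medians. Summits of ribosomal protein hosts gather near 0 (median −38.5 bp), and those of other protein-coding hosts lie further upstream (median −156 bp).

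Transcripts of ribosomal protein genes typically begin with a run of pyrimidines, the TOP motif. The starts of hosts with a summit are shown with 30 bases before the TSS and 10 from it on. Capitals mark the pyrimidine run that covers the TSS, as far as it is shown, or the TSS base alone where it is a purine. The first 4 are ribosomal protein hosts, Arpc2 holds the most snoRNAs, CG1142 had the strongest summit of all hosts, and Uhg2 and Uhg8 are noncoding.
RpL14 (chr3L:8600976-8601015, plus strand): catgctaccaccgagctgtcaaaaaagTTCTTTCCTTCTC
RpL4 (chr3R:27922791-27922830, plus strand): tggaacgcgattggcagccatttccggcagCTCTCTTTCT
RpS9 (chr3L:9511522-9511561, minus strand): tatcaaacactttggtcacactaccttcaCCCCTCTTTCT
RpL28 (chr3L:3222951-3222990, minus strand): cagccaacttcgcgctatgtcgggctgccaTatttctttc
Arpc2 (chr2L:20417027-20417066, plus strand): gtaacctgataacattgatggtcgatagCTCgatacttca
CG1142 (chr3R:7473772-7473811, minus strand): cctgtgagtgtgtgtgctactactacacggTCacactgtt
Uhg2 (chr2L:9894994-9895033, minus strand): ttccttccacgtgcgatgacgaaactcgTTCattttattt
Uhg8 (chr3L:20453263-20453302, plus strand): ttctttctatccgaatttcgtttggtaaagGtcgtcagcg

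A pyrimidine start, counted as a C at an annotated TSS followed by 4 or more pyrimidines on the same strand, was present at 5 of 28 ribosomal protein hosts (17.9%): RpL4, RpL15, RpL27A, RpS7 and RpS9. It was present at 1 of 54 other protein-coding hosts (drn), at 1 of 10 noncoding hosts (Uhg5), at 11 of 61 ribosomal protein genes without a snoRNA and at 1.31% of all protein-coding genes. RpL14 does not meet this rule, as its annotated TSS is a T inside a run of at least 13 pyrimidines. That run reaches the end of the bases shown. All 7 hosts with a pyrimidine start had an IDR promoter summit, as did 21 of 23 ribosomal protein hosts without one. Over all protein-coding genes the summit was present at 76 of 183 with such a start (41.5%) and at 26.7% of those without. In ribosomal protein genes that hold no snoRNA the counts were 8 of 11 (72.7%) with such a start and 39 of 50 (78.0%) without.

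Core promoter motifs were searched on both strands from 250 bases before to 50 bases from the most upstream TSS. The DRE core TATCGATA, bound by Dref, was present in 8 of 28 ribosomal protein hosts (28.6%), 10 of 54 other protein-coding hosts (18.5%) and 0 of 10 noncoding hosts, against 9.36% of all protein-coding promoters. In the ribosomal protein genes that hold no snoRNA it was in 18 of 61 (29.5%). The Motif 1 core GGTCACACT, bound by M1BP, was present in 3 of 28 (10.7%), 4 of 54 (7.41%) and 1 of 10, against 6.04%. RpS9 and CG1142 carry it. The TATA box TATAAA was in 13 of 28 (46.4%), 23 of 54 (42.6%) and 6 of 10, against 45.8%. These searches describe letters in a window and show no binding site.

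The strongest summits among protein-coding hosts that are not ribosomal lay at genes with varied functions. CG1142 had a signal of 2560 at −172 bp (893 in replicate 2 and 1690 in replicate 3), the highest of the 92 hosts in the IDR list and in both replicates. Stt3A, a catalytic subunit of the oligosaccharyltransferase that adds sugars to proteins, had 1519 at −408 bp (351 and 1160). The Stt3A summit lay nearer to the TSS of bves than to that of Stt3A. CG12316 had 1267 at 82 bp downstream (296 and 946). The transcription factor gene lola had 1068 at −419 bp, and Irbp, the Ku70 subunit of the DNA end-joining complex, had 1044 at −88 bp. The lola summit also lay within 500 bp of the TSS of asRNA:CR45135. The Irbp summit lay nearer to the TSS of mgr than to that of Irbp. Msp300, the nesprin that ties nuclei to the cytoskeleton, had 841.2 at −356 bp and drn had 767.9 at −177 bp. Each of these 7 was found within 100 bp in both replicates.

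Another 25 of the 54 had no IDR promoter summit. The alphabetically earliest were Act57B (an actin), Aladin (a nuclear pore protein), CG10576 and CG31191. Act57B, CG10576 and CG31191 had none in the whole-series list either, and Aladin had 131 at −131 bp. CG10576 holds 5 snoRNAs, so hosts of several snoRNAs were found without a summit.

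A summit near a host TSS often lay near the TSS of a neighbour too, within 500 bp, at 13 of 26 ribosomal protein hosts, 18 of 29 other protein-coding hosts (62.1%) and 3 of 4 noncoding hosts, against 58.7% of the protein-coding genes with an IDR promoter summit. When each summit was given only to the gene of the nearest TSS, 24 of 28 ribosomal protein hosts (85.7%) and 20 of 64 other hosts (31.2%) had one, beside 20.2% of protein-coding genes.

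Noncoding hosts were mixed. Uhg4, which holds 7 snoRNAs, had a signal of 818.3 at −74 bp (270 in replicate 2 and 537 in replicate 3), with no other TSS within 500 bp. Uhg8 had 647.0 at −292 bp (349 and 292), Uhg2 had 250.6 at −148 bp (86.9 and 162) and Uhg5 had 201.6 at −16 bp (53.6 and 146). The summits of these 3 also lay within 500 bp of the TSSs of CG5199, Bka and CG12863. For Uhg8 and Uhg2 the neighbour's TSS (CG5199 and Bka) was nearer to the summit than that of the host. Uhg1 had a weaker summit at −117 bp in the whole-series list (126) and an IDR summit just outside the window, at −612 bp. Uhg3 (106 at 23 bp) and lncRNA:CR42491 (48.0 at 39 bp) had a promoter summit in the whole-series list only. Uhg7, lncRNA:CR31647 and lncRNA:CR45184 had none.

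At the snoRNAs themselves the IDR list had few summits. A summit lay within 500 bp of the start of 6 of 71 snoRNAs in ribosomal protein hosts (8.45%, 3.16 to 17.5), 6 of 176 in other hosts (3.41%, 1.26 to 7.27) and 2 of 22 without a host (9.09%, 1.12 to 29.2). Over all annotated genes the share was 22.8%, above the intervals of both hosted classes and inside that of the snoRNAs without a host. Over ncRNA genes it was 10.4%, which lies inside the intervals of snoRNAs in ribosomal protein hosts and without a host and above that of snoRNAs in other hosts. In the whole-series list the counts were 17 of 71 (23.9%, 14.6 to 35.5), 31 of 176 (17.6%, 12.3 to 24.1) and 13 of 22 (59.1%, 36.4 to 79.3), beside 44.2% of all genes and 29.1% of ncRNA genes. The ncRNA share again lies inside the interval of snoRNAs in ribosomal protein hosts and above that of snoRNAs in other hosts, and it lies below that of snoRNAs without a host. Intervals over snoRNAs, here and below, take each snoRNA as independent. However, 153 of the 269 lie in 20 hosts, and neighbours can share a summit. These intervals are therefore likely too narrow, and a share above or below them is a description only.

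Of the 12 hosted snoRNAs with an IDR summit, 10 shared it with the promoter of their host. The 6 in ribosomal protein hosts were snoRNA:U49:66Da in RpL14 (summit −495 bp from the snoRNA start), snoRNA:Psi18S-920 in RpL10Ab (−374 bp, signal 237.3), snoRNA:Me28S-A774b in RpS12 (−481 bp, 238.5), snoRNA:Me18S-G1358c in RpL15 (−210 bp, 249.8), snoRNA:Psi18S-1275 in RpS29 (−308 bp, 289.8) and snoRNA:Me18S-C1096 in RpL3 (−486 bp, 301.5). All 6 lay downstream of a summit near the TSS of the host. In noncoding hosts, snoRNA:Psi28S-2949 (−173 bp) and snoRNA:Or-aca5 (−486 bp) shared the Uhg4 summit, snoRNA:Me18S-A1576 lay behind the Uhg2 summit (−244 bp) and snoRNA:Me18S-C1366 behind that of Uhg5 (−197 bp).

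The other 2 hosted snoRNAs had summits away from the host promoter. snoRNA:Or-CD4, the last of Uhg5, had one at 412 bp downstream of its start, beyond the end of the array, with a signal of 221.0 (74.0 in replicate 2 and 147 in replicate 3). snoRNA:Me18S-C1968, in the first intron of Swim, was the only one of 269 with an IDR summit inside it, at 56 bp from the start, with a signal of 162.0 (24.9 and 118). Swim had no promoter summit in either list. Just outside the window lay snoRNA:Me28S-C3227a of Uhg5 (−503 bp) and snoRNA:Or-CD11a of RpL28 (−508 bp).

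The share fell with distance from the host TSS. Part of this fall is set by the windows, as most of these snoRNAs shared the promoter summit of their host. A snoRNA that starts over 1000 bp from every host TSS cannot lie within 500 bp of a promoter summit. An IDR summit lay within 500 bp of 9 of 35 snoRNAs that start up to 500 bp from the host TSS (25.7%, 12.5 to 43.3), of 1 of 51 that start beyond this but within 1000 bp (1.96%, 0.0496 to 10.4) and of 2 of 161 further away (1.24%, 0.151 to 4.42). In ribosomal protein hosts these counts were 5 of 18, 1 of 24 and 0 of 29. In other hosts they were 4 of 17, 0 of 27 and 2 of 132.

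**Figure D3:**
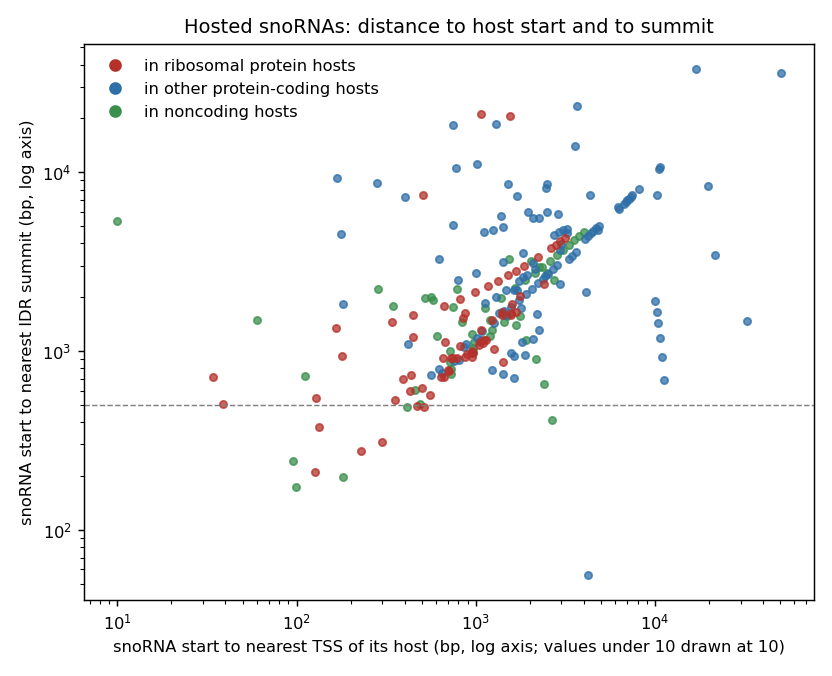
Distance of each hosted snoRNA's start from the nearest TSS of its host (bp, log axis) against its distance from the nearest IDR summit (bp, log axis), coloured by host class. The dashed line marks 500 bp: the 12 snoRNAs below it include 9 whose start is up to 500 bp from the host TSS, and snoRNA:Me18S-C1968 at 56 bp is the lowest point.

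The hosts given 8 or more snoRNAs by the smallest-gene rule had a promoter summit in at least the whole-series list. Neither list had a summit among their snoRNAs. Those with 8 or more were Arpc2 with 17 (a subunit of the Arp2/3 complex that branches actin), Uhg1 with 16, dom with 15 (the ATPase of a chromatin remodelling complex), RpS5a with 14, Uhg5 with 11 and kra with 8. IDR promoter summits were present at Arpc2, RpS5a, Uhg5, kra and dom. Arpc2 had 453.9 at −141 bp (211 in replicate 2 and 227 in replicate 3). For kra it was 272.4 at −149 bp (67.8 and 196). For dom it was 186.5 at 58 bp, with 75.7 in replicate 2 and none found within 100 bp in replicate 3. Between the first and the last snoRNA of these 6, over 24.7 kb, neither list had a summit. The IDR promoter summits of Arpc2, kra, dom and Uhg5 also lay within 500 bp of another gene's TSS. That TSS was the nearest one at Arpc2 (CG10949) and at kra (SecS). The group depends on the host rule: Sf3b3, given 4 snoRNAs, also contains lncRNA:CR45184, which was given 5. Sf3b3 had no IDR promoter summit, a whole-series one of 129 at −92 bp and 1 whole-series summit among its own 4 snoRNAs.

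Over the 20 hosts of 4 or more snoRNAs, which hold 153 of the 269, the arrays covered 55.0 kb and held 0 IDR summits and 5 whole-series summits, 1 each in RpL17, RpS16, lola, Sf3b3 and Uhg2. Over whole chromosome arms there were 6.10 IDR and 22.4 whole-series summits per 100 kb. At that IDR rate a stretch of 55.0 kb would hold only a few summits. The absence of IDR summits alone therefore does not set the arrays apart. In the whole-series list, 5 summits over 55.0 kb lay below the arm-wide rate of 22.4 per 100 kb. A reason for this was not tested. Promoter summits in the IDR list were present at 15 of these 20 hosts. Sequence that occurs more than once was not spread over the arrays: stretches of 50 bases found elsewhere on the arms began at 14.2% of array positions, but at 73.3% of those of Nop60B, at 11.1% in RpS5a and at 2.45% or less in each of the other 18. The signal that reads placed at several loci could give in Nop60B was not tested.

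**Figure D4:**
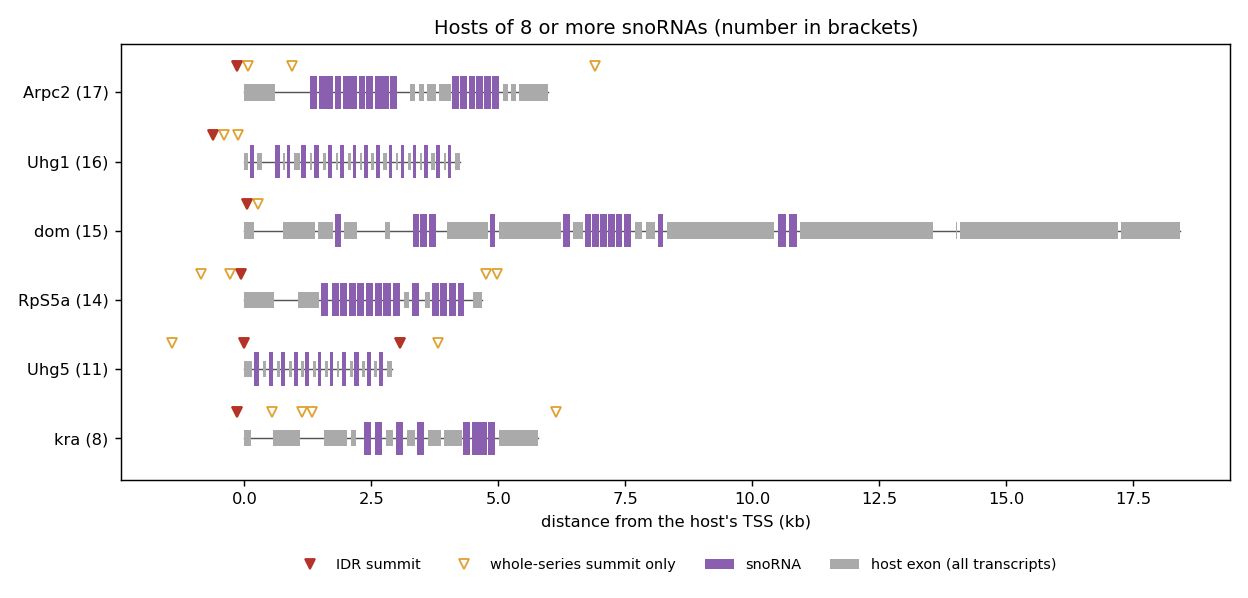
Map of the 6 hosts of 8 or more snoRNAs, in kb from the host's TSS, with exons in grey, snoRNAs in purple, IDR summits as filled triangles and summits of the whole-series list alone as open triangles. Summits lie at the start or outside the block of snoRNAs, and the block itself has none in any of the 6.

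The 22 snoRNAs without a host had their whole-series summits mostly in 1 replicate. With hosts taken on either strand, 12 of them would have no host. Their 13 marked members lay at 12 summits, of which 12 were found within 100 bp in replicate 3 and 1 in replicate 2. Of all 21830 whole-series summits outside the IDR list, 67.0% were found in replicate 3 and 41.8% in replicate 2. Of the summits at snoRNAs in ribosomal protein hosts, 11 of 13 were found in replicate 3 and 7 of 13 in replicate 2, and in other hosts 20 of 24 and 13 of 24. The share of 59.1% for snoRNAs without a host therefore rests on summits of replicate 3.

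Those summits were weak. snoRNA:Or-ACA6 had the only one found in both, with an IDR signal of 190.7 at −411 bp (59.0 in replicate 2 and 141 in replicate 3). snoRNA:185 had an IDR signal of 168.8 at −86 bp, with 145 in replicate 3 and none within 100 bp in replicate 2. The other 11 had whole-series signals between 33.77 and 112.4. They included snoRNA:U3:9B, a U3 snoRNA that takes part in cleaving the ribosomal RNA precursor (33.77, summit inside it at 147 bp), snoRNA:Me18S-A1806 (51.81 at −4 bp) and snoRNA:Psi28S-3342 (96.16, inside it at 50 bp). Of those with no summit in the window, the nearest to an IDR summit were snoRNA:Or-CD13 (summit at 586 bp), scaRNA:MeU1b-A234 (−812 bp) and snoRNA:Or-ACA7 (−1042 bp).

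**Figure D5:**
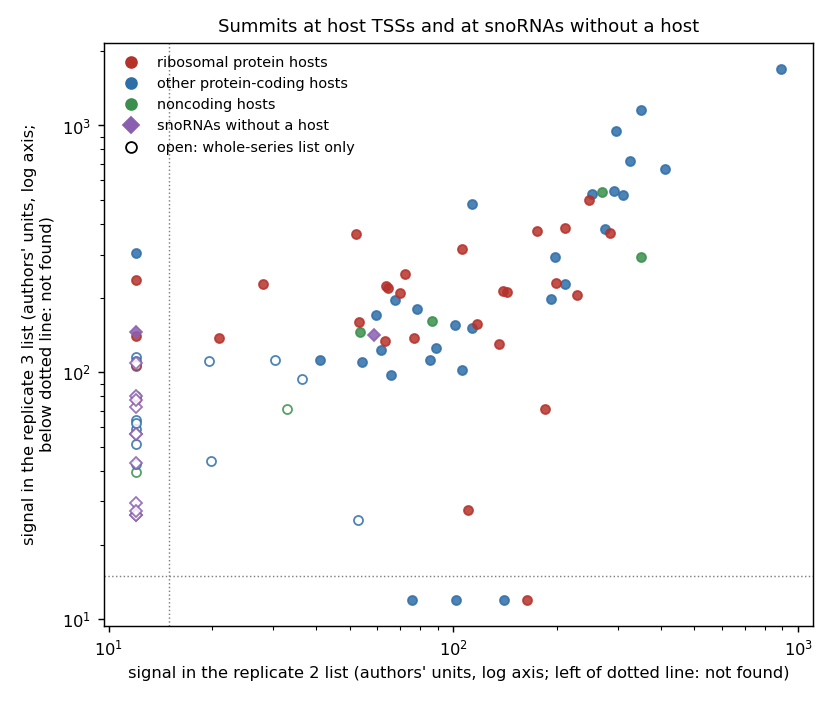
Signal in the replicate 2 list against signal in the replicate 3 list (the authors' units, log axes) at promoter summits of hosts (circles) and at summits near snoRNAs without a host (diamonds), open where only the whole-series list holds the summit. Points beyond a dotted line were not found within 100 bp in that replicate: all but 1 of the diamonds lie there for replicate 2.

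Host promoter summits were mostly present in both replicates. Of the 59 in the IDR list, 56 had a summit within 100 bp in replicate 2, 55 in replicate 3 and 52 in both (88.1%). Over all 8170 IDR summits, 7431 were found in both, 94.1% in replicate 2 and 96.6% in replicate 3, so host summits repeated no more often than IDR summits in general. The IDR list was made from the other lists, so this share is partly built in. Signals were higher in replicate 3: at ribosomal protein hosts the median was 114 in replicate 2 (n = 24) and 214 in replicate 3 (n = 25), and at other protein-coding hosts 113 (n = 28) and 212 (n = 26). The signals of the 2 lists were not scaled to each other. Host summits found within 100 bp in only 1 replicate were those of RpL10Ab, eEF1alpha1, Nop60B and dom in replicate 2, and RpL7A, RpS7 and gcl in replicate 3. This list depends on the match distance: within 200 bp, 59 of 59 were found in replicate 2, 58 in replicate 3 and 58 in both.

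Genes for the proteins that assemble with snoRNAs carried summits at 7 of 11 promoters in the IDR list (63.6%, 30.8 to 89.1) and at 10 of 11 in the whole-series list, beside 26.9% and 49.1% of all protein-coding genes. Among the C/D core proteins, Fib, the methyltransferase fibrillarin, had 263.2 at −117 bp, nop5 (the Nop58 protein) had 516.8 at −235 bp, and hoip, which binds the kink of the guide RNA, had 275.1 at −477 bp, while Nop56 had 144 in the whole-series list only. Among the H/ACA core proteins, NHP2 had 777.7 at −207 bp and Nop60B, the pseudouridine synthase, had 169.6 at −290 bp. Nop10 had 46.8 in the whole-series list only and Gar1 had no summit in either list. Of the assembly factors, the ATPases pont (1918 at −132 bp) and rept (388.3 at −65 bp) had IDR summits, and CG10341, the Naf1 protein, had 112 in the whole-series list only. Fib, nop5 and Nop60B are hosts themselves, with 1, 1 and 7 snoRNAs. The summits of Fib and Nop60B lay nearer to the TSS of another gene, CG3085 and mRpS17.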

How the data were processed

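Peaks of ChIP-seq against CG3032-eGFP were analysed as deposited on dm6 in 4 narrowPeak lists. There was 1 for each of the 2 replicates, 1 whole-series list and 1 IDR thresholded list. Per the description that accompanies them, the whole-series list came from the alignments of both replicates and a control. The IDR list came from the lists of both replicates and the whole-series list. The deposited peak signal served to describe and rank peaks within a list. How reads were aligned, how peaks were called and which IDR cut-off was applied is not given in the sources used here. The control reads themselves were not analysed here. Read depth is unknown. Chromatin fragments were 200 to 800 bp, per the labels.

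Genes came from Ensembl release 115 (BDGP6.54) and sequence from the RefSeq copy of the same assembly. None of 98170 peaks ended past its chromosome. Coordinates are 1-based. Hosts were found on the same strand, small RNA genes aside. Replicate summits within 100 bp were called shared. Shares have exact (Clopper-Pearson) 95% intervals (Python 3.11.15, SciPy 1.17.1), and assignment was tested on simulated summits.

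Named were snoRNAs with an IDR summit, per host class up to 8 strongest and 4 alphabetically earliest unmarked hosts, hosts of 8 or more, the 3 unhosted snoRNAs nearest to a summit and snoRNP genes. Others were chosen after their values were seen. Some genes that this rule names are not reported here. Members and lists were chosen with earlier results of these data known. Alternatives covered lists, windows, host rules, TSS choice and each replicate.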

Additional observations from a re-analysis of the deposited data

How the results depend on the processing

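Of the alternative values, 46 stayed within the interval or replicate spread of the main value and 28 moved beyond it. In the whole-series list, promoter shares were 100% for ribosomal protein hosts and 76.6% for other hosts, snoRNA shares 23.9% and 17.6% in those hosts and 59.1% without a host, and the median signal of other hosts 219.9. With the stronger 4085 IDR peaks these shares were 42.9%, 26.6%, 2.82%, 1.14% and 0%, with median signals of 421.7 and 767.9. With a window of 200 bp, other hosts had 35.9% and a median of 265.6, and snoRNAs in ribosomal protein hosts 0%. With 1000 bp, snoRNA shares were 42.3% and 15.9%. With each summit given to the nearest gene only, other hosts had 31.2%, and the snoRNAs 0% and 1.14%. Stricter lists and narrower windows admit fewer summits by construction. The nearest-gene setting takes a summit from every other gene within the window, so by construction it can lower a share and cannot raise it. Leaving out a replicate gave promoter shares of 92.9 to 96.4% for ribosomal protein hosts and 57.8 to 60.9% for other hosts, snoRNA shares of 8.45 to 11.3%, 3.41 to 4.55% and 4.55 to 13.6% (no host), median signals of 117.4 to 213.1 and 106.0 to 169.9 (each list has its own scale) and a median host position of −127.0 to −65.00 bp. Summits in both replicates made up 62.7% with a match within 50 bp, 98.3% within 200 bp and 76.3% among the strongest replicate peaks only. Other host rules changed the host of 13 snoRNAs (either strand, which leaves 12 without a host) or 11 (longest gene). Read depth is unknown, so what weak peaks could be missed cannot be stated. No paired analysis was possible because there is 1 group.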
